A study of Mus musculus with 6 samples.

Results

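Retinal ganglion cells, the output neurons of the eye, were compared with cone photoreceptors born at the same time, within the same sequencing library. Cells carrying the deposited label of ganglion cell or cone were taken from 6 droplet single-cell libraries of mouse retina at embryonic day 14. There were 10649 such cells, 7357 ganglion cells and 3292 cones, of 67050 cells in all. The UMIs (unique molecular identifiers, each marking 1 captured transcript) of each type were summed per library, and the log2 difference between the 2 sums of a library is the ganglion-minus-cone difference.

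The 6 libraries formed 3 groups of 2 libraries, and no group had both genes intact. The first group was Bax null, with titles that name no Atoh7 genotype, the second Bax het Atoh7 null and the third Bax null Atoh7 null. All were of embryonic day 14, so every comparison is made on a background with 1 or both copies of Bax lost. The labels do not say whether replicate libraries came from separate litters or embryos, so the spread between them may be partly technical.

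Ganglion cells and cones both arise early from neurogenic progenitors that pass through a shared transitional state. Atoh7 is a basic helix-loop-helix transcription factor of that state and is required for most ganglion cells to form, whereas cones depend on factors such as Otx2 and Crx. Bax is a pore-forming effector of programmed cell death, and its loss lets neurons survive that would otherwise die. A gene's ganglion-minus-cone difference shrinks where the higher type loses the gene, where the lower type gains it, or both.

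Atoh7 was absent from the sums labelled Atoh7 null: all 8 held 0 UMIs, which allows at most 1.06 to 3.37 CPM (UMIs of the gene relative to all UMIs of the sum) for a floor of 3 UMIs. In the Bax null libraries its ganglion sums held 77 and 113 UMIs and its cone sums 17 and 16. The Bax transcript is a weaker check, since its counted 3' end need not lie in the deleted stretch. Ganglion cells of the Bax null Atoh7 null libraries differed, with 85.2 CPM of Bax in replicate 1 against 28.1 CPM in replicate 2, where Bax null had 30.3 and 26.7 CPM and the Bax het Atoh7 null pair 251 and 185 CPM.

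The Bax null Atoh7 null libraries shared 2596 cell barcodes, 17.6% of the first and 22.0% of the second, where 236 would be shared by random draws of barcodes. Among these, 89.4% carried the same cell type in both libraries, and the copy in replicate 1 held a median of 0.380 of the UMIs of the copy in replicate 2. The other replicate pairs shared 135 and 130 barcodes. In replicates 1 and 2, 20.6% and 22.8% of ganglion cells and 8.51% and 10.5% of cones had a shared barcode. Results are therefore also given without these cells.

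Depth per cell differed between genotypes in both types. The median ganglion cell held 5578 and 6683 UMIs in Bax null and 1834 to 2624 UMIs in the Atoh7 null libraries, and the median cone 3502 and 3854 against 1165 to 1965 UMIs. Cone sums lay between 890484 and 1384550 UMIs and ganglion sums between 1913889 and 10906998. There were 5.35 and 6.11 ganglion cells per cone in Bax null, 1.25 and 1.45 in the Bax het Atoh7 null pair and 1.44 and 1.78 in the Bax null Atoh7 null pair. Both types come from the same library, so the difference within it removes what acts on both alike. Cones held fewer UMIs per cell than ganglion cells of the same library, and this gap in depth remains. A sum does not tell fewer expressing cells from less RNA per cell.

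The deposited labels held against marker genes. Of 12 ganglion markers, 11 or 12 were higher in ganglion cells than in cones of every library, Thy1 being the exception in 5 libraries. Of 12 cone markers, 10 were higher in cones in each library, and Pde6h and Rcvrn were not. The ganglion label nevertheless covered different cells in the genotypes. It consists of 20 deposited clusters, of which 9 held 64.2% and 64.4% of the Bax null ganglion cells but only 3.15% to 5.98% of those in the Atoh7 null libraries. Another 5 clusters (46, 53, 62, 90 and 129) held 67.6% to 72.0% of the Atoh7 null ganglion cells and 6.66% and 5.67% in Bax null. These 5 and cluster 44, which held 9.14% and 9.17% of the Bax null ganglion cells, had no ganglion marker among the 10 genes that set them apart most. Together these 6 clusters held 15.8% and 14.8% of the ganglion cells in Bax null and 69.2% to 73.5% in the Atoh7 null libraries. The 5 cone clusters were filled in all 6 libraries.

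**Figure D1:**
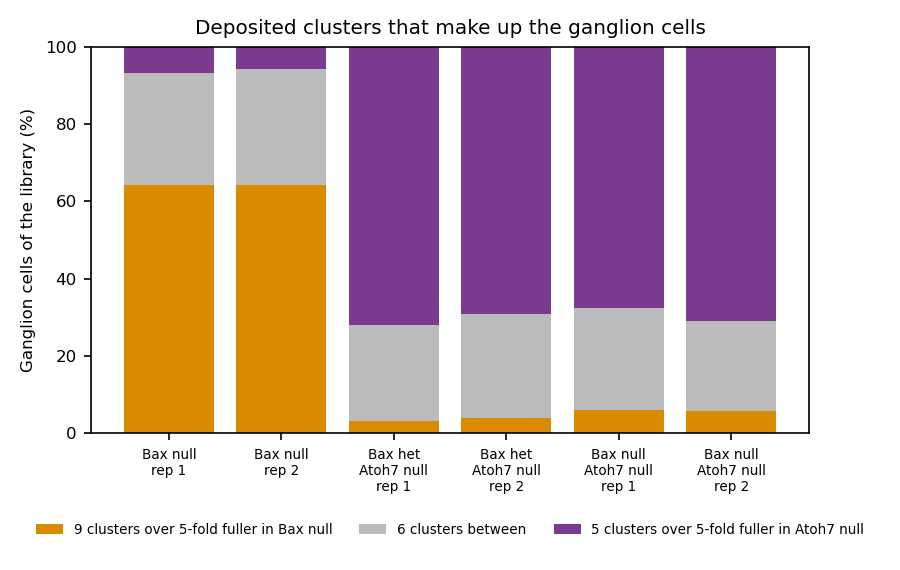
Share of each library's ganglion cells (%) in deposited clusters, grouped by whether the mean share was over 5-fold higher in Bax null, over 5-fold higher in the Atoh7 null libraries, or between. The orange part is 64.2% and 64.4% in Bax null and at most 5.98% elsewhere, and the purple part is 67.6% to 72.0% in the 4 Atoh7 null libraries.

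Markers of other cells moved with genotype as well. The summed level of 26 markers of blood, vessel and other non-retinal cells was 981 to 1161 CPM in ganglion cells and 1486 to 1721 CPM in cones of Bax null, against 44.7 to 291 CPM and 55.7 to 314 CPM in the Atoh7 null libraries. In ganglion cells the phototransduction list summed to 282 and 300 CPM in Bax null and 522 to 688 CPM without Atoh7, the photoreceptor transcription factors to 1706 and 1718 against 2663 to 3446 CPM, the neurogenic list to 2245 and 2371 against 5257 to 5987 CPM and the progenitor list to 1339 and 1596 against 2150 to 2708 CPM. The amacrine and horizontal cell list summed there to 2072 and 2110 against 2756 to 3216 CPM. In cones the neurogenic list summed to 3366 and 3461 CPM in Bax null and 4518 to 5009 CPM without Atoh7, the progenitor list to 1613 and 1621 against 2034 to 2716 CPM and the amacrine and horizontal list to 1894 and 1963 against 2152 to 2369 CPM. The part of admixed or free RNA in the results was not tested.

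The gene levels given from here on are CPM after TMM scaling, in which edgeR multiplies each sum's total by a factor. The factor was 0.737 and 0.753 in the Bax null ganglion sums and 1.04 to 1.16 in the others, and 0.833 and 0.840 against 1.12 to 1.22 in cones. By totals of the tested genes alone, levels without Atoh7 stand higher against Bax null, by a median of 0.53 in ganglion cells and 0.45 in cones on the scale of log2(CPM + 1), so a statement on the level of 1 type depends on the scaling more than the difference within a library. Of 101 genes named here, 16 in ganglion cells and 35 in cones differed between these scalings in whether, or in which direction, the Bax null and Atoh7 null libraries stood apart. The order turned for Stmn2 in ganglion cells and for Tubb3 in cones.

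Where the fates differed at least 2-fold, most differences that changed without Atoh7 became smaller. Ganglion-minus-cone differences were at least 2-fold for 2739 of 10542 genes tested (26%), 1500 higher in ganglion cells and 1239 higher in cones, taking for each gene the larger of its Bax null and Atoh7 null differences. The labels were made from the same cells' expression, so the difference itself is a description. Its change between genotypes passed the test (edgeR quasi-likelihood, adjusted p under 0.05) for 1346 genes (12.8%), 773 (7.33%) with a lower and 573 (5.44%) with a higher difference in the Atoh7 null libraries. Among the 1500 ganglion-high genes 345 (23%) shrank and 67 (4.47%) grew. Among the 1239 cone-high genes 235 (19%) shrank and 68 (5.49%) grew.

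The per-library values show the same shift. The median difference over the ganglion-high genes was 1.47 and 1.49 on the log2 scale in Bax null, 0.99 and 1.09 in the Bax het Atoh7 null pair, and 1.0 and 1.04 in the Bax null Atoh7 null pair. For the cone-high genes it was -1.35 and -1.43, then -1.18 and -1.21, then -1.09 and -1.26. In both sets the Bax null libraries lay outside the other 4, and the choice of genes used these values. Over all genes tested the median lay between -0.02 and 0.04 in every library.

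**Figure D2:**
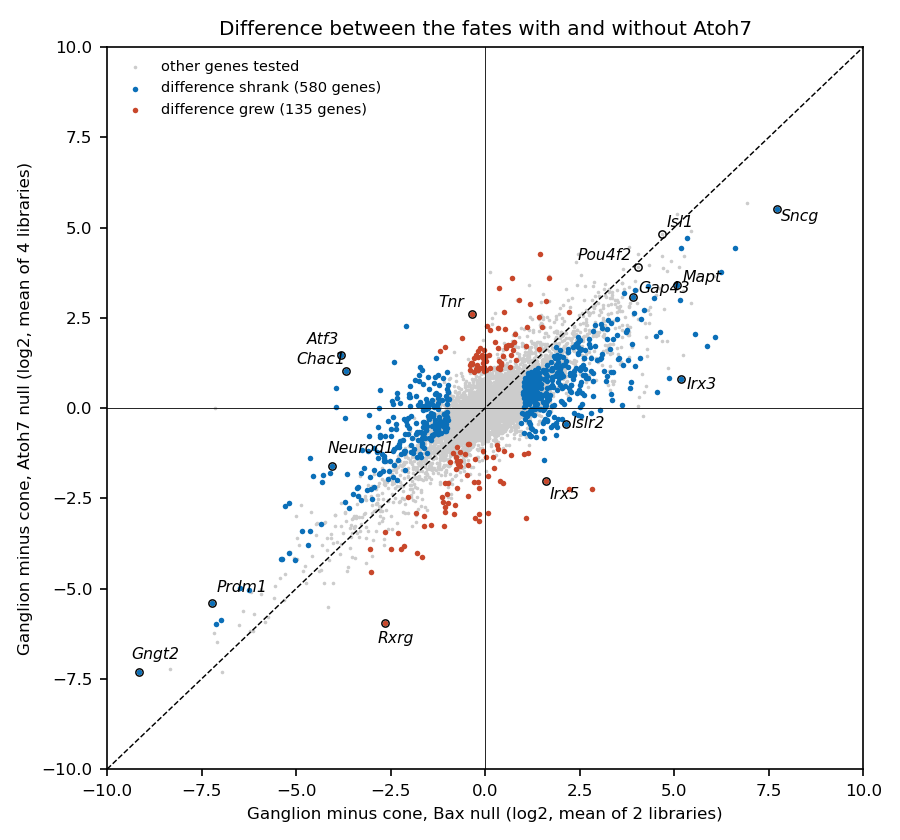
Ganglion-minus-cone difference of each gene tested (log2) in Bax null (x axis, mean of 2 libraries) and without Atoh7 (y axis, mean of 4 libraries), with the line of equality dashed. The 580 genes whose difference shrank lie on the side of the line nearer to 0, and 135 genes grew.

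The tools differed in how many genes they called. DESeq2 called 348 and limma on the 6 per-library differences 249 where edgeR called 1346, and by edgeR with library totals as the only scaling, 546 genes were lower and 761 higher, and the shrunken genes were 261 ganglion-high and 319 cone-high. With each cell thinned to 1000 UMIs, edgeR called 465 genes and 240 shrank, 183 of them among the 580. Without the shared barcodes 538 genes shrank, 528 of them among the 580. With only the 6 ganglion clusters that held at least 1% of ganglion cells in all 6 libraries (9, 44, 62, 63, 90 and 100) and all cones, 256 shrank, of which 209 were among the 580, and 114 grew. The mix of these 6 clusters still differed between genotypes, cluster 44 being fuller in Bax null and cluster 62 in the Atoh7 null libraries. Across 22 alternatives, shrunken genes made up 69.2% to 83.0% of those that shrank or grew.

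Each Atoh7 null genotype was also set against Bax null on its own, with Bax null as the shared control. The difference changed for 1076 genes (10.2%) in the Bax null Atoh7 null pair and for 1012 genes (9.6%) in Bax het Atoh7 null. Between these 2 genotypes, which differ in Bax, 1 gene of 10542 (0.00949%) was called. This was Ddit4, a stress-induced inhibitor of mTOR signalling, whose difference was -0.57 in the Bax het Atoh7 null pair and 0.31 in the Bax null Atoh7 null pair (0.87 ± 0.17 SE, adjusted p = 0.015, edgeR), where 624 genes had an unadjusted p under 0.05 and DESeq2 and limma called 0 genes.

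Which type's level moved more depended on the scaling. After TMM scaling it was the ganglion cells for 214 of the 345 shrunken ganglion-high genes and for 180 of the 235 shrunken cone-high genes. The median level change of the former, Atoh7 null minus Bax null on the scale of log2(CPM + 1), was -0.76 in ganglion cells and 0.35 in cones, and that of the latter was 1.09 in ganglion cells and -0.18 in cones. By totals it was the ganglion cells for 124 of the 345 and 224 of the 235, with medians of -0.22 in ganglion cells and 0.80 in cones for the former and of 1.56 and 0.28 for the latter. Set against the progenitors of the same library, 2884 of 13670 genes (21.1%) changed in ganglion cells and 915 of 13168 (6.95%) in cones (edgeR). Ganglion sums held more UMIs than cone sums, and with sums thinned to the smallest 963 and 670 genes changed. With the full sums, 247 of the 345 passed against progenitors on the ganglion side only, 44 on the cone side only, 27 on both and 27 on neither. Counts by side at equal depth were not tested. Of the 235, 98 passed on the ganglion side only, 56 on the cone side only, 36 on both and 45 on neither. Progenitor levels can differ between genotypes too, and are given below for some genes only.

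**Figure D3:**
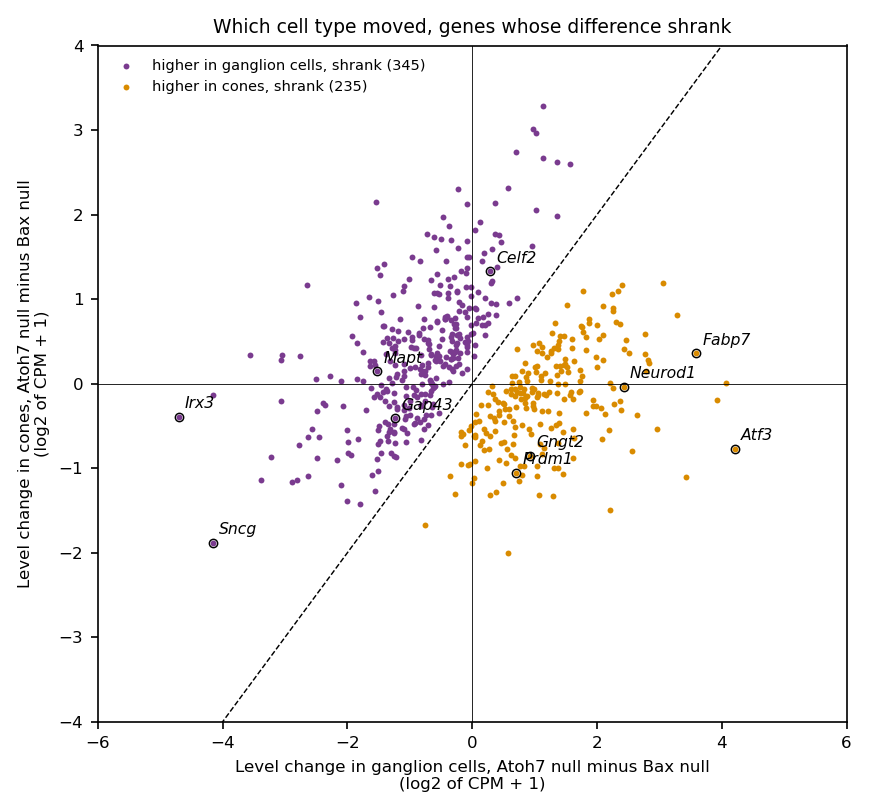
Change of level without Atoh7 (log2 of TMM-scaled CPM + 1, mean of 4 libraries minus mean of 2 Bax null libraries) in ganglion cells (x axis) and in cones (y axis) for the genes whose difference shrank. The 345 ganglion-high genes have a median of -0.76 in ganglion cells and the 235 cone-high genes one of 1.09, and the dashed line marks equal change. By totals the ganglion cell medians are -0.22 and 1.56.

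Genes of the axonal cytoskeleton and growth cone, which ganglion cells use to build the optic nerve, were mostly higher in ganglion cells and mostly shrank. Of 35 list members tested, 29 were ganglion-high, 22 shrank, 2 grew and 5 were not called, where 23% of all ganglion-high genes shrank. The median difference of the list was 2.0 in Bax null and 1.68 without Atoh7, and over all genes tested 0.04 and -0.02.

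Gap43, a growth cone protein, stood at 3295 and 3709 CPM in ganglion cells of the Bax null libraries, 1317 and 1718 CPM in the Bax het Atoh7 null pair, and 1276 and 1704 CPM in the Bax null Atoh7 null pair. In cones it was at 257 and 213, 186 and 141, and 169 and 218 CPM in the same order. Ganglion levels did not overlap between the 2 Bax null and the 4 Atoh7 null libraries, and cone levels did. The difference of 3.88 in Bax null changed by -0.81 ± 0.09 (SE, adjusted p = 1.7e-11, edgeR).

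Mapt, which encodes the microtubule-binding protein tau, was at 496 and 541 CPM in Bax null ganglion cells and at 160, 165, 192 and 204 CPM in the Atoh7 null libraries, with cones between 10.6 and 20.3 CPM throughout. Its difference changed by -1.61 ± 0.27 (SE, adjusted p = 1.7e-06, edgeR). Sncg, the ganglion cell marker gamma-synuclein, had 2859 and 3216 CPM against 130, 163, 199 and 195 CPM. Cones had 22.2 and 8.45 CPM of Sncg in Bax null and 1.40 to 4.36 CPM without Atoh7, so both types were lower and the difference went from 7.58 by -1.83 ± 0.43 (SE, adjusted p = 0.0022, edgeR). Progenitors moved the same way. With each cell thinned to 1000 UMIs, 0.66% and 0.69% of progenitors held Sncg in Bax null and 0.13% to 0.23% without Atoh7.

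Other members named here changed less, or the other way. Tubb3, the neuronal beta-tubulin, passed with -0.19 ± 0.05 (SE, adjusted p = 0.0099, edgeR), but its per-library differences overlapped between the genotypes, as did those of the neurofilament gene Nefl (-0.57 ± 0.18). Nefm changed by -0.73 ± 0.16. Its cone levels were higher without Atoh7 under either scaling, by totals 39.6 and 32.5 against 58.9 to 91.5 CPM. Its ganglion levels overlapped after TMM scaling and were higher without Atoh7 by totals (1173 and 1176 against 1216 to 1868 CPM). Stmn2, a tubulin regulator, was not called (0.04 ± 0.05, adjusted p = 0.74), but was with only the clusters present in all libraries (0.27, adjusted p = 0.0024, edgeR). Stmn4, of the same family, was at 326 and 375 CPM in Bax null ganglion cells and 561 to 717 CPM without Atoh7, and its difference grew by 0.74 ± 0.12 (adjusted p = 2.6e-07, edgeR). The kinesin gene Kif5c grew by 0.44 ± 0.12.

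The axonal calls depended on the tool and on the clusters. DESeq2 called 11 of the 22 shrunken genes, limma 1 and edgeR on thinned cells 13. With only the 6 ganglion clusters present in all libraries, 7 of the 22 genes remained called and 7 changed sign, Gap43 being at 0.07, Nefl at 0.35 and Nefm at 0.01. There Mapt was at -0.19 and Sncg at -0.20, and neither passed (adjusted p = 0.81 and 0.90, edgeR). Without the shared barcodes 20 of the 22 remained called.

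**Figure D4:**
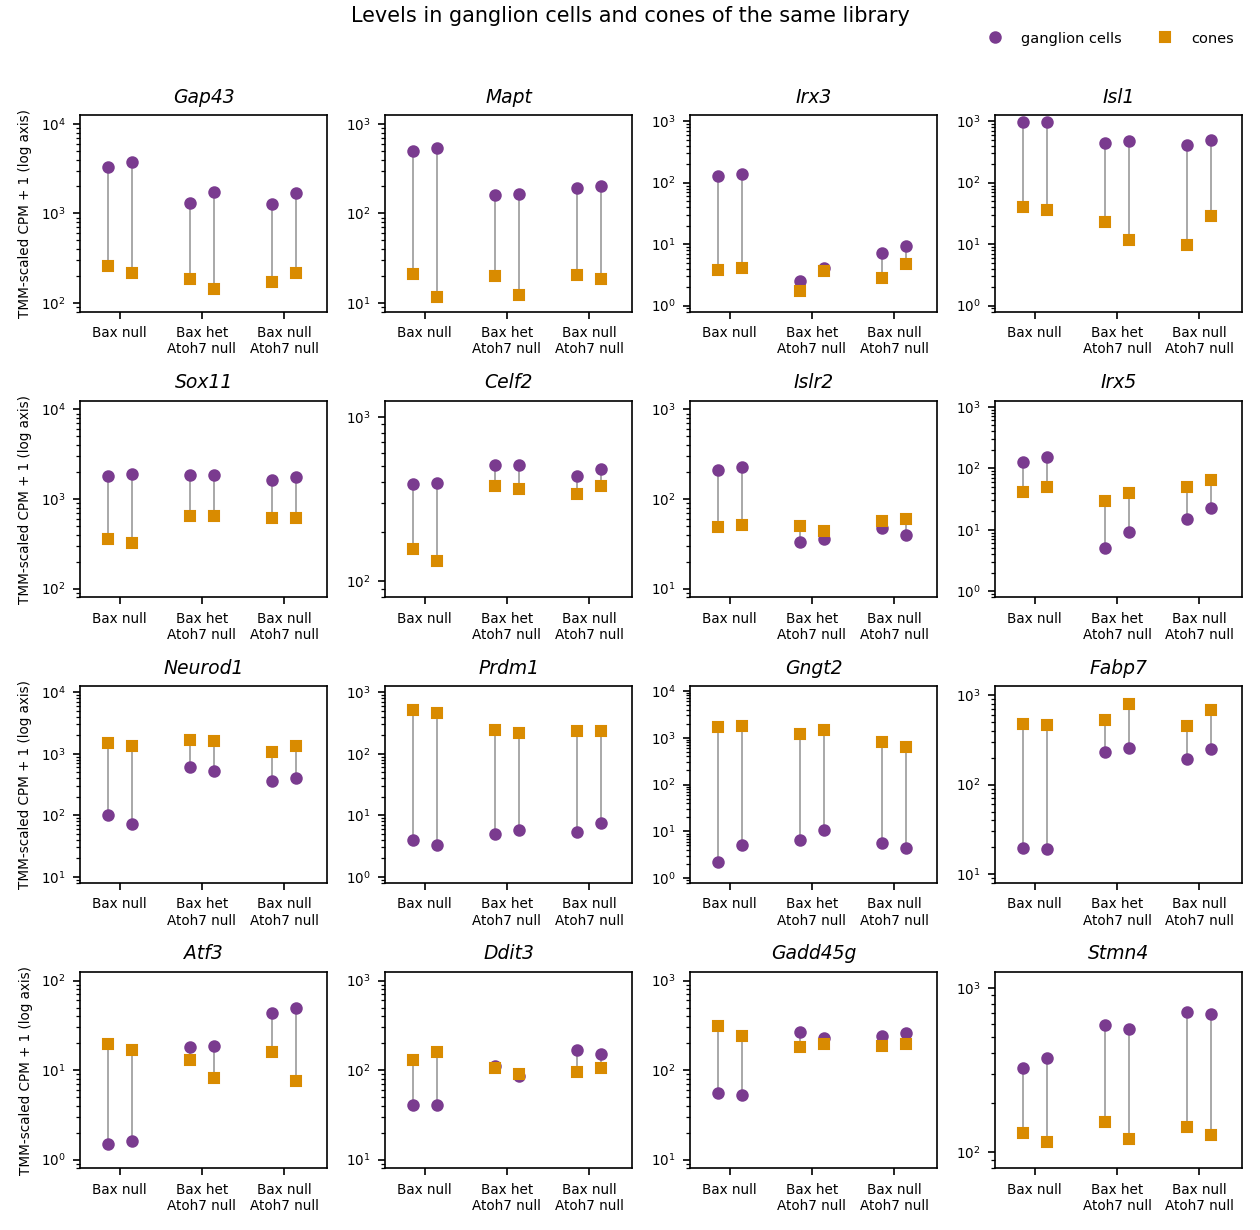
Level (TMM-scaled CPM + 1, log axis) of 16 genes in ganglion cells (purple circles) and cones (orange squares) of each of the 6 libraries, the 2 sums of a library joined by a line. The line shortens without Atoh7 for Irx3 or Neurod1, is about as long for Isl1, lengthens for Stmn4, and turns over for Irx5 and Atf3.

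Of 29 ganglion cell transcription factors tested, 20 were ganglion-high: 6 shrank (30%, where 23% of all ganglion-high genes did), 1 grew and 13 were not called. The median difference of the list was 2.55 in Bax null and 1.35 without Atoh7. Isl1, a LIM homeodomain factor of ganglion cell differentiation, was at 956 and 974 CPM in Bax null ganglion cells and 437, 477, 416 and 492 CPM without Atoh7. Cones had 38.8 and 34.9 CPM of Isl1 in Bax null and 21.7, 10.5, 8.72 and 27.8 CPM without Atoh7. On this scale both types were lower, although by totals the cone levels overlapped. The difference was 4.70 in Bax null, 4.84 in the Bax het Atoh7 null pair and 4.76 in the Bax null Atoh7 null pair (change 0.09 ± 0.22 SE, adjusted p = 0.86, edgeR), but without the shared barcodes its change was called (1.28, adjusted p = 0.0016, edgeR). Progenitors had 2.4 to 3.8 CPM of Isl1 in all 6 libraries.

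Pou4f2, a POU factor that acts just after Atoh7, had lower counts. Ganglion cells had 110 and 108 CPM against 32.9, 61.9, 44.5 and 46.8 CPM, and cones 5.54 and 6.34 against 1.25 to 5.56 CPM. Its difference changed by 0.02 ± 0.32 (SE, adjusted p = 0.98, edgeR). With likely doublets left out the changes of Isl1 and Pou4f2 were -0.66 and -0.74, again not called (adjusted p = 0.14 and 0.69, edgeR), so their direction is not settled.

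Irx2, Irx3 and Irx5 are Iroquois homeobox genes. Irx3 was at 125 and 139 CPM in Bax null ganglion cells and at 1.49, 3.08, 6.09 and 8.36 CPM without Atoh7, with cones between 0.701 and 3.70 CPM in all libraries. Its difference of 5.46 changed by -4.54 ± 0.75 (SE, adjusted p = 9.8e-07, edgeR). Irx2 changed by -2.43 ± 0.51. Irx5 was at 125 and 150 CPM in Bax null ganglion cells and 3.99, 8.2, 14 and 21.3 CPM without Atoh7, while cones held 28.7 to 63 CPM in all 6 libraries. It thus passed from higher in ganglion cells (1.62) to higher in cones (-2.41 and -1.66), a change of -3.66 ± 0.21 (adjusted p = 3.5e-29, edgeR). With only the clusters present in all libraries Irx5 was still called (-1.19) and Irx3 was not (-1.40, adjusted p = 0.35, edgeR).

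Lmo2, a LIM-only cofactor, also turned over. It had 42.3 and 40.5 CPM in Bax null ganglion cells and 0 to 1.71 CPM without Atoh7, with 2.49 to 7.39 CPM in cones. Isl2 and Irx6, which cones express at this age, grew on the cone side by -1.96 ± 0.28 and -1.71 ± 0.24. Their low ganglion levels were 12.4 and 14.5 CPM, and 14.3 and 15.7 CPM, in Bax null. Without Atoh7 they were 2.99 to 6.84 and 4.98 to 10.0 CPM, but by totals those of Irx6 overlapped. Cone levels of both genes were higher without Atoh7 under either scaling. By totals they were 31.0 and 31.7 against 49.4 to 65.5 CPM for Isl2, and 64.4 and 51.0 against 90.7 to 154 CPM for Irx6. Ebf2 changed by -2.71 ± 0.42. Ebf1, a helix-loop-helix factor of postmitotic neurons, was lower in both types and shrank by -0.88 ± 0.08 (adjusted p = 3.8e-17, edgeR): ganglion cells had 2424 and 2544 against 452 to 700 CPM, and cones 466 and 388 against 165 to 212 CPM.

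Pou4f1 and Sox11 stood apart in cones under either scaling, and in ganglion cells by totals only. Pou4f1, a POU factor of differentiated ganglion cells, had 150 and 171 CPM in Bax null ganglion cells, inside the 134 to 185 CPM of the other libraries, but 18.5 and 18.0 CPM in cones against 28.7 to 40.0 CPM. By totals its ganglion levels were 113 and 126 against 150 to 195 CPM. Its difference changed by -0.91 ± 0.25 (SE, adjusted p = 0.0045, edgeR). Sox11, a factor of newborn neurons, was at 1647 to 1886 CPM in ganglion cells of all libraries, and by totals at 1370 and 1391 against 1840 to 2053 CPM. Cones held 352 and 323 CPM of Sox11 in Bax null and 607 to 645 CPM without Atoh7, and progenitors 432 and 426 against 611 to 649 CPM, for a change of -0.95 ± 0.07 (adjusted p = 7.0e-23, edgeR).

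Among neuronal RNA-binding proteins, which control splicing and stability of neuronal transcripts, 7 of 9 ganglion-high genes shrank, where 23% of all ganglion-high genes did, and Rbfox1 grew on the cone side. DESeq2 called 2 of the 7, limma 2 and edgeR on thinned cells 1. Rbpms, a marker of ganglion cells, had 165 and 169 CPM in Bax null ganglion cells and 34.8 to 45.8 CPM without Atoh7 (change -1.56 ± 0.46, adjusted p = 0.011, edgeR), and Rbpms2 changed by -1.32 ± 0.32 and Elavl4 by -0.44 ± 0.14. For Celf2 both types were higher without Atoh7. Cones held 157 and 132 CPM of Celf2 in Bax null and 339 to 379 CPM without Atoh7, ganglion cells 390 and 396 against 435 to 508 CPM, and progenitors 281 and 267 against 386 to 426 CPM, a change of -1.03 ± 0.10 (adjusted p = 2.0e-16, edgeR). With only the clusters present in all libraries 1 of the 7, Celf2, was still called.

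Of 33 axon guidance and adhesion genes tested, 22 were ganglion-high and 5 of these shrank (22.7%, where 23% of all ganglion-high genes did). Among 5 cone-high genes 3 shrank, where 19% of all cone-high genes did, and 1 ganglion-high gene grew. The median difference of the list was 1.70 in Bax null and 0.81 without Atoh7. Islr2, a transmembrane protein needed for ganglion axon growth, had 212 and 227 CPM in Bax null ganglion cells and 32.4, 34.9, 46.6 and 38.4 CPM without Atoh7, against 42.8 to 59.3 CPM in cones of all libraries. Its difference of 2.15 was -0.44 and -0.42 in the Atoh7 null genotypes (change -2.58 ± 0.17, adjusted p = 1.8e-24, edgeR). Cntn1, a contactin higher in cones, shrank by 0.81 ± 0.13, with 30.1 and 27.1 CPM in Bax null ganglion cells and 50.8 to 60.2 CPM in the others.

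Of 29 synaptic and excitability genes, 17 were ganglion-high and 4 of these shrank (23.5%, beside 23% of all ganglion-high genes). Among 5 cone-high genes 3 grew, where 5.49% of all cone-high genes did. With only the clusters present in all libraries 0 of the 4 shrunken genes were still called. Syt4, a vesicle protein, had 90.2 and 90.8 CPM in Bax null ganglion cells and 52.3 to 75.3 CPM without Atoh7, and in cones 2.77 and 3.17 CPM against 11.2 to 22.2 CPM (change -2.76 ± 0.46, adjusted p = 1.6e-06, edgeR). By totals the ganglion levels of Syt4 overlapped. Nsg1, an endosomal protein of neurons, changed by -0.64 ± 0.13. In those clusters Syt4 was at -0.42 and Nsg1 at -0.25 (adjusted p = 0.76 and 0.30, edgeR). The release genes Snap25 and Cplx2 were higher in cones and grew by -0.73 ± 0.10 and -0.80 ± 0.13, Snap25 being at 0.29 in those clusters (adjusted p = 0.18, edgeR). Slc17a6, the vesicular glutamate transporter of ganglion cells, was at 19.6 and 19.2 CPM in Bax null ganglion cells and 2.15 to 5.81 CPM without Atoh7. Cones had 12 and 6.34 CPM of Slc17a6 in Bax null, 99.5 and 59.9 CPM in the Bax het Atoh7 null pair, and 27.4 and 8.33 CPM in the Bax null Atoh7 null pair, so cone levels overlapped on this scale (change -4.35 ± 0.37, adjusted p = 4.7e-18, edgeR).

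Photoreceptor transcription factors shrank from the cone-high side. Of 22 tested, 15 were cone-high: 10 shrank, Rxrg grew and 4, among them Thrb, were not called. In the list 10 of 15 cone-high genes shrank, where 19% of all cone-high genes did. The median difference of the list was -2.63 in Bax null and -1.70 without Atoh7.

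Neurod1, a helix-loop-helix factor of photoreceptor precursors, had 1509 and 1361 CPM in Bax null cones, inside the 1083 to 1673 CPM of the other libraries. Ganglion cells had 100 and 72.3 CPM of Neurod1 in Bax null, 606 and 515 CPM in the Bax het Atoh7 null pair, and 363 and 402 CPM in the Bax null Atoh7 null pair. Progenitors had 16 and 12.3 CPM of it against 21.1 to 35.9 CPM. The difference of -4.06 was -1.55 and -1.64 without Atoh7, a change of 2.46 ± 0.07 (adjusted p = 2.2e-55, edgeR), and it was 1.30 with only the clusters present in all libraries.

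In Prdm1 both types stood apart under either scaling, the cones lower and the ganglion cells higher without Atoh7. This repressor of bipolar fate in photoreceptor precursors had 519 and 455 CPM in Bax null cones and 245, 221, 235 and 232 CPM without Atoh7, with 2.25 to 6.46 CPM in ganglion cells and 0.589 to 1.97 CPM in progenitors. By totals the ganglion levels of Prdm1 were 2.21 and 1.66 CPM in Bax null against 4.20 to 7.51 CPM. Its difference changed by 1.97 ± 0.31 (SE, adjusted p = 2.1e-07, edgeR). Otx2, the homeobox gene upstream of the photoreceptor fate, had 18.9 and 14.7 CPM in Bax null ganglion cells and 25.0 to 43.4 CPM without Atoh7, and changed by 1.23 ± 0.13. Crx, its partner, changed by 1.47 ± 0.34 but rested on 1.25 to 7.17 CPM in ganglion cells, beside 1.25 to 4.08 CPM in progenitors, and its per-library differences overlapped. Neurod4 changed by 1.25 ± 0.16 and Nrl by 2.12 ± 0.63. With only the clusters present in all libraries Prdm1 was at 0.67, Otx2 at 0.30, Crx at -0.36 and Neurod4 at -0.33, and none of these passed (adjusted p = 0.46, 0.40, 0.79 and 0.44, edgeR).

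Rxrg and Thrb encode nuclear receptors of cones. Rxrg had 19.2 and 21.5 CPM in Bax null ganglion cells and 0.380 to 2.73 CPM without Atoh7, with 120 to 158 CPM in cones of all libraries, and grew by -3.65 ± 0.28 (adjusted p = 1.1e-20, edgeR). Thrb was at -4.08 in Bax null and -3.86 and -3.66 in the Atoh7 null genotypes (change 0.32 ± 0.15 SE, adjusted p = 0.16, edgeR).

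Of 12 phototransduction genes tested, 11 were cone-high: 1 shrank (9.09%, where 19% of all cone-high genes did), 1 grew and 9 were not called. The median difference of the list was -4.25 in Bax null and -3.79 without Atoh7. Gngt2, the cone transducin gamma subunit, had 1695 and 1821 CPM in Bax null cones, 1211 and 1455 CPM in the Bax het Atoh7 null pair, and 803 and 632 CPM in the Bax null Atoh7 null pair. Ganglion cells had 1.27 to 9.91 CPM of Gngt2 and progenitors 1.41 to 6.91 CPM. Its difference of -9.32 changed by 1.90 ± 0.28 (SE, adjusted p = 6.2e-08, edgeR). By totals its cone levels overlapped between the genotypes with and without Atoh7. Sag, the arrestin gene, grew by -2.86 ± 0.62 at 3.74 to 11.2 CPM in cones. Fabp7, a fatty acid binding protein carried by young cones here, had 18.3 and 18.1 CPM in Bax null ganglion cells and 230, 253, 194 and 251 CPM without Atoh7, with 7.48 to 13.8 CPM in progenitors (change 3.28 ± 0.11, adjusted p = 1.7e-49, edgeR).

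Genes of the neurogenic transition, which progenitors switch on as they leave the cell cycle, changed in both directions. Of 26 tested, 10 of 11 cone-high genes shrank, where 19% of all cone-high genes did. Among 5 ganglion-high genes 4 grew, where 4.47% of all ganglion-high genes did, and 5 other members were called but differed by less than 2-fold. Gadd45g, a cell cycle exit gene, had 55 and 52.3 CPM in Bax null ganglion cells and 267, 228, 239 and 260 CPM without Atoh7. Its cone levels were 312 and 240 CPM against 178 to 195 CPM, but by totals they overlapped. The difference of -2.36 was 0.40 in both Atoh7 null genotypes (change 2.76 ± 0.11, adjusted p = 1.7e-42, edgeR). Dll3, a Notch ligand of newborn neurons, changed by 1.35 ± 0.13.

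Neurog2, the proneural factor upstream of Atoh7, was ganglion-high and grew. It had 25.1 and 18.0 CPM in Bax null ganglion cells and 165 to 190 CPM without Atoh7, and in cones 17.6 and 8.45 against 41.5 to 58.3 CPM (change 1.13 ± 0.33, adjusted p = 0.0099, edgeR). Gadd45a grew by 1.12 ± 0.08 and Onecut2 by 0.79 ± 0.07. In the clusters present in all libraries Gadd45g stood at 1.65 and was still called, whereas Neurog2 was at 0.07, Gadd45a at -0.01 and Onecut2 at 0.21 and none of these passed (adjusted p = 0.96, 0.97 and 0.090, edgeR).

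In the list of cell death and stress genes, those of the stress response shrank. Of 33 tested, 11 of 13 cone-high genes shrank (84.6%, where 19% of all cone-high genes did), 1 ganglion-high gene did and none grew. The members of the BCL2 family and the apoptosome in the list were not called. The 11 were Atf3, Atf4, Ddit3, Trib3, Chac1, Sesn2, Ddit4, Jun, Slc7a3, Slc7a11 and Asns, most of them known targets of the transcription factor ATF4 in the response to amino acid shortage and misfolded protein. The median difference of the list was -0.71 in Bax null and 0.31 without Atoh7. All 12 remained called without the shared barcodes, with only the clusters present in all libraries and by DESeq2, and limma called 9. The clusters present in all libraries include cluster 62, described below, which was fuller without Atoh7. That setting thus leaves the unequal share of this cluster in place.

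Atf3, a stress-induced transcription factor, had 0.509 and 0.624 CPM in Bax null ganglion cells, 16.9 and 17.4 CPM in the Bax het Atoh7 null pair, and 41.9 and 47.9 CPM in the Bax null Atoh7 null pair. Cones had 18.5 and 15.8 CPM of Atf3 in Bax null and 6.48 to 14.9 CPM in the others, and progenitors 3.06 to 5.86 CPM. By totals the cone levels overlapped. The difference of -4.82 was 0.87 and 1.95 without Atoh7, a change of 6.23 ± 0.52 (adjusted p = 8.4e-19, edgeR).

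Ddit3, which encodes the stress factor CHOP, is better counted. Its ganglion levels were 40.1 and 39.6 CPM in Bax null, 109 and 85.1 CPM in the Bax het Atoh7 null pair, and 167 and 150 CPM in the Bax null Atoh7 null pair, and its cone levels 130 and 157 against 90.3 to 106 CPM. Ganglion levels did not overlap between the genotypes with and without Atoh7, and cone levels overlapped by totals. The difference changed by 2.18 ± 0.14 (adjusted p = 5.2e-26, edgeR). Chac1, a glutathione-degrading enzyme, changed by 5.24 ± 0.39, Trib3, a pseudokinase, by 4.31 ± 0.57, and Sesn2, an mTOR regulator, by 3.07 ± 0.52. Asns, asparagine synthetase, changed by 2.4 ± 0.19, and Phgdh, the first enzyme of serine synthesis and outside the list, by 3.64 ± 0.27.

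These genes lead ganglion cluster 62, with Atf3, Trib3, Chac1 and Slc7a3 among its top 10. That cluster held 2.43% and 1.97% of ganglion cells in Bax null, 10.9% and 11.3% in the Bax het Atoh7 null pair, and 16.6% and 18.4% in the Bax null Atoh7 null pair. The part of this cluster's share in the result was not tested.

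Promoter sequence is shown for the stress genes because they shared a direction and have a textbook response element. The motif searched was TGATGNAA, the composite site of ATF4 and C/EBP factors, on both strands, in windows from 250 bases before to 50 bases after the RefSeq transcript starts (GRCm38.p6). Of 10 genes asked (the 11 above without Jun), 9 matched a window and 5 held the motif, as did 4.51% of all 27025 genes. Atf3, Chac1, Slc7a11 and Asns hold it upstream of the start, and Trib3 just after it. These are matches of letters chosen after the values were seen, not binding sites. Capitals mark the motif or its reverse complement in the gene's 5′ to 3′ direction.
Atf3, chr1:191183406-191183473, minus strand: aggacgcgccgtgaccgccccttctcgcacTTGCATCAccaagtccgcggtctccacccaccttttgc
Chac1, chr2:119351019-119351086, plus strand: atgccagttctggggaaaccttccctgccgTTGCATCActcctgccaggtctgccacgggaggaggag
Slc7a11, chr3:50443623-50443709, minus strand: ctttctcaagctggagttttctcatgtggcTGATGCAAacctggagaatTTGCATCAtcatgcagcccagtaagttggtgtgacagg
Asns, chr6:7693210-7693262, minus strand: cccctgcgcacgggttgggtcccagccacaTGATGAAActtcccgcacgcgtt
Slc7a11, the cystine transporter, holds the motif in both directions. Its ganglion levels were 0.509 and 0.624 CPM in Bax null and 4.98 to 14.1 CPM without Atoh7 (change 4.34 ± 0.69, adjusted p = 4.1e-07, edgeR).

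**Figure D5:**
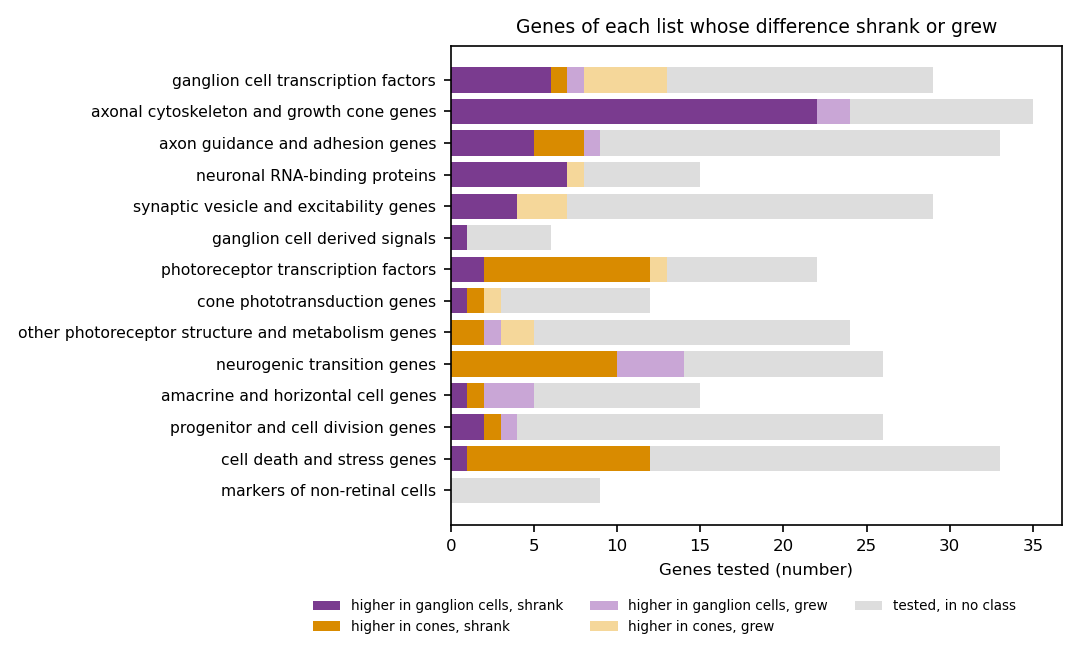
Number of genes tested in each of 14 gene lists, coloured by whether the ganglion-minus-cone difference shrank or grew without Atoh7 and by the type with the higher level. The axonal list has 22 shrunken ganglion-high genes of 35, and the stress list 11 shrunken cone-high genes of 33.

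In the remaining lists, 5 of 15 amacrine and horizontal cell genes were called (2 shrank and 3 grew), 7 of 26 progenitor genes (3 shrank, 1 grew and 3 differed by less than 2-fold) and 10 of 24 other photoreceptor genes (2 shrank, 3 grew and 5 differed by less than 2-fold), where 12.8% of all genes were. Of 9 tested markers of non-retinal cells 2 were called, both under 2-fold. Of 6 tested signals made by ganglion cells only Ptn shrank.

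Several ganglion-high genes named by size of change were barely counted in cones. Ngfr, the low-affinity neurotrophin receptor, had 45.9 and 48.0 CPM in Bax null ganglion cells and 13.9 to 18.1 CPM without Atoh7. Cones had 0 UMIs of Ngfr in both Bax null libraries and 2.10 to 5.93 CPM in the others, so its fitted fold is not given. Rgs10 and Mapk10 likewise had 0 UMIs in Bax null cones. Calb2, the calcium-binding protein calretinin, had 54.3 and 67.8 CPM in Bax null ganglion cells and 1.90 to 3.94 CPM without Atoh7, with 0 to 7.25 CPM in cones (change -5.01 ± 1.01, adjusted p = 7.3e-05, edgeR). Ecel1, a neuronal protease, changed by -4.55 ± 1.02, Rgs6, a regulator of G-protein signalling, by -3.68 ± 0.77, and Dixdc1 by -3.23 ± 0.61.

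Among cone-high genes the rule also named Klf4, a zinc-finger factor (2.94 ± 0.28), Cnnm1 (3.25 ± 0.62), Lmo3 (3.22 ± 0.65), C2cd4b (3.03 ± 0.32) and Gm4792 (2.99 ± 0.79). In Klf4 the cones held 107 and 113 CPM in Bax null and 75.1 to 97.1 CPM in the others, and the ganglion cells 2.55 and 1.75 against 8.74 to 19.0 CPM. By totals its cone levels overlapped.

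The rule also named ganglion-high genes that grew. Tnr, which encodes the matrix protein tenascin-R, had 5.48 and 6.74 CPM in Bax null ganglion cells and 46.3, 36.9, 44.1 and 44.5 CPM without Atoh7, with 3.51 to 8.56 CPM in cones (change 3.03 ± 0.53, adjusted p = 4.5e-06, edgeR). Erbb4, a neuregulin receptor, changed by 3.22 ± 1.08, Csn3 by 2.91 ± 0.77, Fstl5 by 2.13 ± 0.67, Cthrc1 by 2.89 ± 0.37 and Adcyap1, a neuropeptide gene, by 2.32 ± 0.39.

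Nmrk1 and Carnmt1, named by the same rule, are neighbours on chromosome 19 (chr19:18631950-18652428 and chr19:18670764-18707200, plus strand, GRCm38). Nmrk1, a nicotinamide riboside kinase, had 18.6 and 20.2 CPM in Bax null ganglion cells and 61.6 to 79.7 CPM without Atoh7 (change 3.03 ± 0.40, adjusted p = 1.2e-09, edgeR). Carnmt1, a methyltransferase, changed by 2.20 ± 0.20 with ganglion levels of 77.6 and 66.1 against 74.9 to 91.9 CPM, which by totals were 58.4 and 48.7 against 86.7 to 96.0 CPM. In cones Carnmt1 had 76.7 and 63.4 against 9.26 to 21.1 CPM, and in progenitors 165 and 154 against 28.4 to 39.2 CPM. Ostf1, on the minus strand just beside Nmrk1 (chr19:18516137-18631823) and examined after these values were seen, had 140 and 135 CPM in Bax null ganglion cells and 280 to 360 CPM without Atoh7 (change 1.94 ± 0.21, adjusted p = 4.3e-13, edgeR).

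Cone-high genes that grew were named as well. Ppp2r2b, a phosphatase subunit, had 58.8 and 61.7 CPM in Bax null ganglion cells and 5.98 to 13.7 CPM in the others, with 63.4 to 94.5 CPM in cones (change -2.79 ± 0.19, adjusted p = 1.7e-23, edgeR). Fam19a2 changed by -3.28 ± 0.41, Rbfox1 by -3.16 ± 0.36, Nab1 by -2.94 ± 0.31 and 1190005I06Rik by -2.30 ± 0.36.

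The widest differences that were not called include neuropeptide and transmitter genes of ganglion cells and structural genes of cones. Sst, somatostatin, had 173 and 171 CPM in Bax null ganglion cells and 35.5 to 83.7 CPM without Atoh7, and Th, tyrosine hydroxylase, 67.1 and 63.4 against 6.81 to 14.7 CPM, with cones at 0 to 2.78 CPM of either. Cone sums held 0 to 3 UMIs of Sst and 0 to 2 UMIs of Th. With 1 library left out the change ranged from -3.98 to 2.87 for Sst and from -4.55 to 2.14 for Th. The missing call therefore does not show that these differences held. Runx1t1 had 89.7 to 156 CPM in ganglion cells of all libraries and 3.17 to 10.2 CPM in cones. Both types held more of it without Atoh7 under either scaling. By totals ganglion cells had 70.5 and 66.1 against 127 to 162 CPM, and cones 3.88 and 2.64 against 8.0 to 12.4 CPM. On the cone side Egflam had 45.4 to 67.2 CPM, Lypd1 199 to 326 CPM, Nxnl2 29.9 to 56.0 CPM, Otx2os1 14.8 to 28.0 CPM and Dnaic1 44.9 to 59.9 CPM in cones, with at most 2.12 CPM of any of them in ganglion cells.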

How the data were processed

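The deposited values are raw UMI counts made by the authors from droplet libraries, with a table of cell type and cluster labels that were used as given. Per the submitters' processing notes, the tool was Cell Ranger 1.2.1 and the build mm10. The authors' filters on cells are not given in the sources used here. Matrix sums equalled the deposited totals in all 67050 cells of the 6 libraries, and 26078 cells of 2 libraries outside the sample list were not used.

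Counts were summed per library in ganglion cells, cones and progenitors. The 12 ganglion and cone sums entered 1 edgeR 4.0.16 quasi-likelihood fit (R 4.3.3; filterByExpr, TMM scaling) with library as a block and 1 ganglion-minus-cone term per genotype, leaving 3 residual degrees of freedom. The fit borrowed variance across genes with 99.9 prior degrees of freedom. P-values and SE by edgeR thus rest mostly on a variance shared across genes, not on each gene's own replicates. The change is the mean of the 2 Atoh7 null terms minus the Bax null term. P-values were two-sided and adjusted by Benjamini-Hochberg over 10542 genes. SE is the change divided by the square root of F. A gene is ganglion-high or cone-high when its difference is 2-fold or more in Bax null or without Atoh7, by the larger. It shrank or grew when its change was called and the size of the difference fell or increased. Per-library differences use a prior count of 2. A permutation of 2 against 4 libraries cannot pass an adjustment over all genes, so none was used. The script was tested on simulated data.

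Named genes are Atoh7, Bax, list members, up to 8 genes per class by size of change (at least 20 CPM, genotypes not overlapping) and up to 5 widest uncalled genes per side. The members and gene lists were chosen with earlier results of these data known. Genes named outside the rule are identified as such. Some genes that the rule names are not reported here. Alternatives covered scaling (RLE, totals), DESeq2 1.42.0, limma 3.58.1, filters, thinning, doublets (the 8% of cells with the highest Scrublet score per library, scanpy 1.11.5), shallow cells, model and each library left out. Leaving out shared barcodes, restricting clusters and levels by totals were chosen after seeing the data. Positions come from GENCODE vM21 (GRCm38). UMI counts and floors cover counting error only.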

Additional observations from a re-analysis of the deposited data

Results flagged for a closer look

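In 16 genes the type with the higher level changed with Atoh7, the ganglion-minus-cone difference having opposite signs in Bax null and in the mean of the Atoh7 null genotypes and a size of at least 2-fold in each, and the test of the change passed (edgeR). Passing from ganglion to cone side were Lmo2 (-5.86 on the log2 scale), Tac1, which encodes tachykinin neuropeptides (-4.96), Slc17a6 (-4.35), Irx5 (-3.66), Mmp2 (-2.89) and 1700041G16Rik (-7.45). The last had 0 UMIs in both Bax null cone sums, so its value is no bound. Mmp2 had 2 and 1 UMIs in the same sums, so its Bax null difference rests on few counts. Passing from cone to ganglion side were Atf3 (6.23), Chac1 (5.24), Nupr1 (4.97), En2 (4.68), Trib3 (4.31), Trim66 (4.27), Nfia (3.09), Creb5 (2.96), Cthrc1 (2.89) and Mgmt (2.22). In Bax null, En2 had 0 and 3 UMIs in ganglion cells and 4 and 1 in cones, and Trim66 1 and 3, and 2 and 3. The side of En2 and Trim66 in Bax null thus rests on few counts. Nupr1, a stress-induced chromatin protein, had 2.17 and 0.25 CPM in Bax null ganglion cells and 23.4, 25.0, 33.0 and 36.9 CPM without Atoh7, while Bax null cones differed between replicates at 2.77 and 13.7 CPM. Tac1 had 34.4 and 42.7 CPM in Bax null ganglion cells and 0 to 2.15 CPM in the others.

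Ddit4 was the gene whose difference differed between the Bax null Atoh7 null and Bax het Atoh7 null genotypes (0.87, edgeR). The 2596 cell barcodes shared by the Bax null Atoh7 null libraries exceed the 236 that random draws would share.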

How the results depend on the processing

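Counts of called genes depended on the tool and the depth. DESeq2 called 348 genes for Atoh7 null minus Bax null, 243 for Bax null Atoh7 null and 247 for Bax het Atoh7 null against Bax null, 0 between the latter genotypes, 1276 for ganglion minus progenitor and 268 for cone minus progenitor, with 84 shrunken ganglion-high and 121 cone-high genes. Limma gave 249, 113, 122, 0, 642 and 12, with 91 and 80 shrunken. Sums thinned to the smallest gave 580, 480, 406, 0, 963 and 670, with 155 and 129. Cells thinned to 1000 UMIs gave 465, 392, 343, 0, 961 and 400, with 127 and 113. Clusters held by all 6 libraries gave 850, 703, 518 and 1554, with 129 and 127. A 4-fold cutoff left 138 and 113 shrunken genes, and choosing genes by their mean over 6 libraries 170 and 118. By that mean 1728 genes differed at least 2-fold in the main setting and 5086 without a filter. The counts at least 2-fold apart with 1 library left out, given below, use the same measure. Between the Atoh7 null genotypes 0 genes were called without doublets, 3 without cells under 1000 UMIs and 3 without shared barcodes. Leaving out 1 library at a time (the genotype left with 1 library is assumed to vary like the others) gave 845 to 1229 genes for Atoh7 null minus Bax null, 530 to 1001 and 545 to 993 for its genotypes, 0 to 1 between them, 1785 to 2915 and 380 to 963 against progenitors, 1834 to 2016 at least 2-fold apart, and 233 to 325 and 187 to 240 shrunken; without Bax null replicate 2 the count was 845. Library totals moved the median change of all genes from -0.07 to 0.02. Replicate numbers did not pair the libraries (correlations 0.010, 0.0045 and 0.020), and a replicate block gave 598 shrunken genes, 577 of them shared. Of 1996 values for 101 named genes, 221 lost their call, 2 gained one and 65 changed sign, mostly in uncalled genes. By setting these were Th 0.13 with library totals; Sst -0.36, Egflam 0.46 and Otx2os1 0.49 by DESeq2; Sst -1.25, Otx2os1 0.28, Dnaic1 0.0011 and Pou4f2 -0.15 by limma; Pou4f2 -0.017 without a filter; and Egflam 0.048 with the replicate block. Thinned sums gave Isl1 -0.0014, Egflam 1.07, Nxnl2 -3.38, Otx2os1 1.33 and Pou4f2 -0.14. Without doublets the values were Sst -3.73, Isl1 -0.66, Otx2os1 0.34, Pou4f2 -0.74 and Stmn2 -0.029. Without shallow cells Pou4f2 was -0.051. Thinned cells gave Sst -3.31, Isl1 -0.013, Nxnl2 -0.59, Otx2os1 0.77 and Neurog2 -0.18. With 1 term for all Atoh7 null libraries Sst was -0.77, Egflam 1.05, Otx2os1 1.11 and Dnaic1 0.27. Without shared barcodes Runx1t1 was 0.16, Egflam 0.020 and Otx2os1 0.052. Clusters held by all libraries gave Runx1t1 0.076, Lypd1 0.16, Nxnl2 -0.86, Gap43 0.067, Nefl 0.35, Nefm 0.013, Snap25 0.29, Crx -0.36, Neurod4 -0.33 and Gadd45a -0.012. With 1 library left out the ranges were Sst -3.98 to 2.87, Th -4.55 to 2.14, Isl1 -0.21 to 0.50, Pou4f2 -0.40 to 0.62, Stmn2 -0.033 to 0.11, Egflam -2.38 to 0.39, Lypd1 -2.88 to 0.062, Nxnl2 -1.75 to 0.75, Otx2os1 -2.03 to 0.53 and Dnaic1 -1.52 to 0.54. The cause of these moves was not tested.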
